A study of Mus musculus with 12 samples.

Results

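Transcripts of 42 genes of the urea cycle and of amino acid breakdown were compared between Lcorl knockout (KO) and wild-type (WT) mouse liver. The genes were chosen by name for their place in these pathways, with earlier results of these data known. The deposited table of 17714 genes held all 42. All 12 animals were females of 3 weeks. In 6 of them Lcorl, which encodes a DNA-binding nuclear protein, was deleted in the whole body, and 6 were WT. Total RNA was sequenced, 1 library per animal. The sources used here do not give the strain, the design of the deleted allele or the feeding state at collection, and each animal has a number of its own.

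The liver is the main organ that breaks down amino acids, and the urea cycle within it turns the ammonia they release into urea. Carbamoyl phosphate and citrulline are made in mitochondria, and the later steps run in the cytosol, so carriers for ornithine, aspartate and glutamate connect both compartments. Carbon skeletons are split off by separate pathways: aromatic amino acids through homogentisate or kynurenine, branched chain amino acids through the branched chain ketoacid dehydrogenase complex, and methionine through S-adenosylmethionine. Many of these enzymes are known to rise with glucagon, glucocorticoids and protein intake.

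Values are normalized counts, reads divided by 1 factor per library, and library depth ran from 21769795 to 28655120 reads in WT and from 27692285 to 31296485 in KO. Lcorl itself had 199 to 323 reads in each WT library and 0 to 3 in each KO library. Fold changes are KO over WT on the log2(normalized count + 1) scale from limma, and adjusted p-values cover all 13569 genes with a mean of at least 10. In bulk RNA, fewer cells of a type and less RNA per cell cannot be told apart. Summed levels of 7 hepatocyte markers lay in like ranges in both groups, with most of each sum from Alb, and none passed the threshold in limma. The authors' deposited comparison called 3 of the 7, Apoh and Ahsg higher (adjusted p = 0.0142 and 0.0207) and Serpina1c lower (0.0164). Of 7 fat cell markers, Adipoq, Cfd, Plin1, Lep and Retn were at 0 in some libraries. The summed level was 361 to 1444 in WT and 271 to 814 in KO. Plin4 alone measured 119 (in WT 6) to 1439 in WT and 254 to 786 in KO, so these sums mostly follow Plin4. Of 3 measured pancreatic acinar markers, Reg1 and Ctrb1 were at 0 in some libraries, and the summed level was 33.7 to 341 in KO, with the highest value in KO 2. Adipoq was at 53.4 in WT 6 and at most 0.976 elsewhere, and Reg1 at 126 in KO 2 and 0 elsewhere, so the counts over all genes, members and companions are also given without these 2 livers in the closing section. Summed erythroid markers were 7562 to 39760 in WT and 6567 to 22610 in KO, and all 6 had negative log2 fold changes (median −0.76), with 0 past the threshold in limma and 2 at an unadjusted p under 0.05. Summed stellate cell and fibroblast markers were 16420 to 22910 in WT and 8987 to 20160 in KO, and all 6 had negative log2 fold changes (median −0.37). None of these 6 passed in limma, 3 had an unadjusted p under 0.05, and the authors' deposited comparison called Col1a1 lower (adjusted p = 0.0164). The part of these cells in the results was not tested.

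Of the 42 genes, 5 passed an adjusted p of 0.05, or 11.9%, where 4.43% of all tested genes did. Earlier results of these data were known when the genes were listed, so such shares describe the list and were not tested. Dbt and Ivd of branched chain breakdown rose, while Qdpr, Kmo and Haao of aromatic amino acid breakdown fell. The 2 that rose stand beside a background of 1.75% of genes higher in KO, and the 3 that fell beside 2.68% lower. Without the threshold, 29 of the 42 had higher and 13 lower mean levels in KO, and the median log2 fold change was 0.11, where 51.8% of all tested genes were higher and their median was 0.0075. An unadjusted p under 0.05 was reached by 17 members, against 23.4% of all genes. The members are abundant transcripts, with means of 969 normalized counts or more, while the median tested gene had 405. The authors' deposited DESeq2 comparison called 11 members (26.2%, against 8.68% of its genes): Nags, Bckdhb, Mat1a, Ahcy, Dbt and Ivd higher (background 3.92%) and Gpt2, Prodh, Qdpr, Kmo and Haao lower (background 4.76%). The changes were small, and only Prodh had a fitted difference of 1.5-fold or more. The plot of fold changes by pathway shows every member with its interval.

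**Figure D1:**
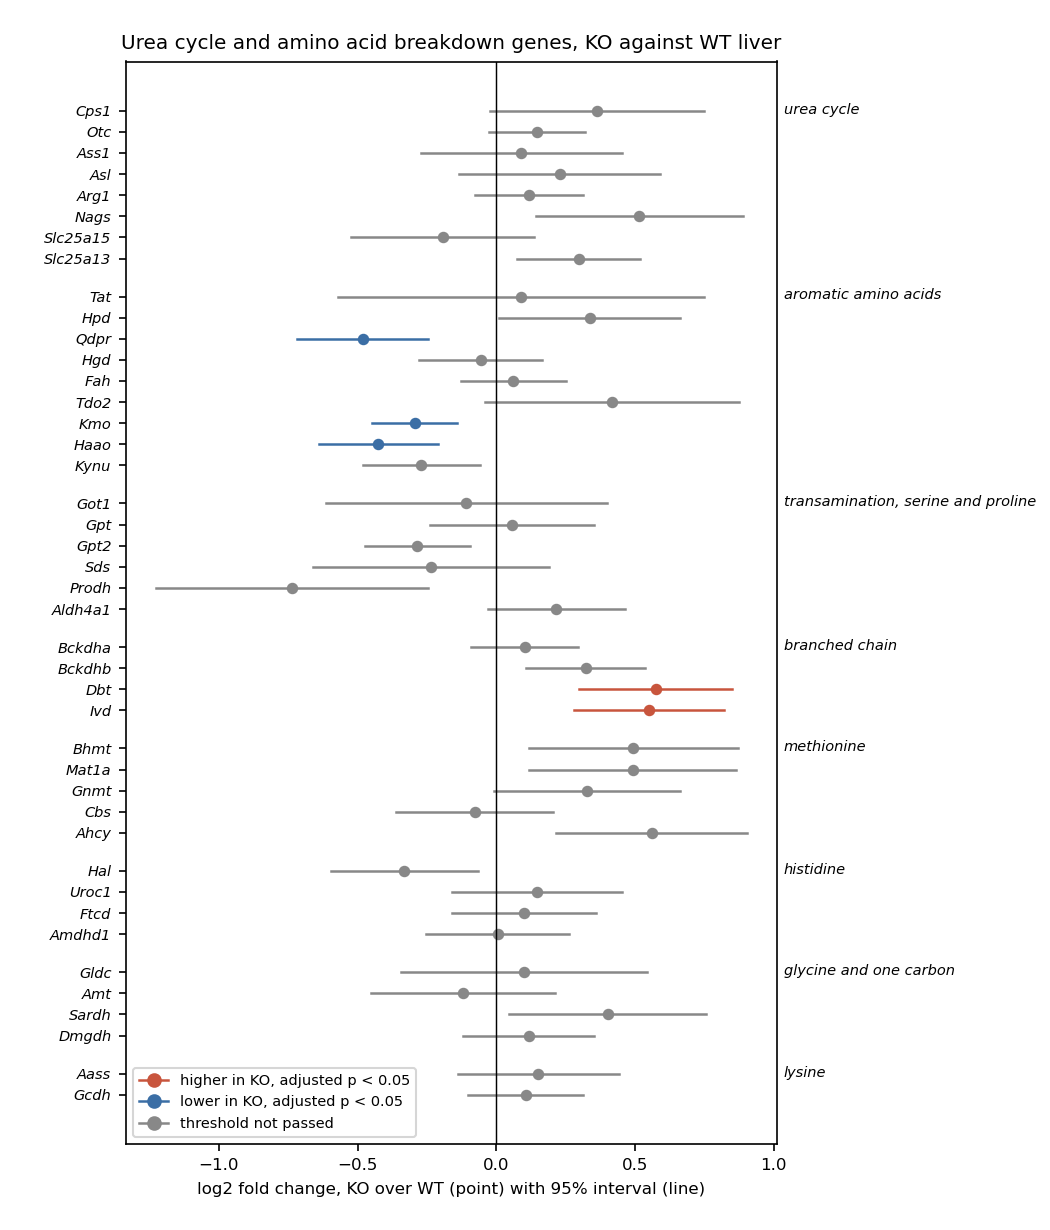
Log2 fold change of each of the 42 genes, KO over WT, with its 95% interval from limma (6 libraries per group), grouped by pathway. Dbt and Ivd lie to the right and Qdpr, Kmo and Haao to the left past the threshold, and the remaining 37 did not pass it.

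Start site sequences of called genes are shown, chosen by p and not by direction: Ivd rose, while Qdpr, Haao and Kmo fell. RefSeq promoters on GRCm38.p6, from 250 bases before to 50 bases after the annotated start, were found for 34 of the 42 members, and those of the 4 members with the smallest p among these are printed 5′ to 3′ along the gene. Dbt is not among them. Capitals mark matches on either strand to the TATA box as TATAAA, the CCAAT box as CCAAT, the cAMP response element as TGACGTCA, a C/EBP site as TTGCNNAA, an HNF4 site as CAAAGTCCA or a glucocorticoid receptor core site as TGTTCT, and the marked matches do not overlap.
Ivd, chr2:118861744-118862043, plus strand: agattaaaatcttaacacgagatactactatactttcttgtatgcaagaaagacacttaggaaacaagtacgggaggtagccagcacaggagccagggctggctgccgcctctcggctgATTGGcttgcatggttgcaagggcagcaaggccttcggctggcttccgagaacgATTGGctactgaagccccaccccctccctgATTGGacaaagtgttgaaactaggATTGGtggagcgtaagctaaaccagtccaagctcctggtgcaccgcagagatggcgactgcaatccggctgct
Qdpr, chr5:45450180-45450479, minus strand: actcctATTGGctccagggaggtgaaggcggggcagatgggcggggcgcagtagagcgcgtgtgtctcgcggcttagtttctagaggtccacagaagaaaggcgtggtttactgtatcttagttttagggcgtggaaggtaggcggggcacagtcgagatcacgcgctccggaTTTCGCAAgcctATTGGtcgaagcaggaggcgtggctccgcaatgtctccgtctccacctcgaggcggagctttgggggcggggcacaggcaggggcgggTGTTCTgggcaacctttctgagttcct
Haao, chr17:83846741-83847040, minus strand: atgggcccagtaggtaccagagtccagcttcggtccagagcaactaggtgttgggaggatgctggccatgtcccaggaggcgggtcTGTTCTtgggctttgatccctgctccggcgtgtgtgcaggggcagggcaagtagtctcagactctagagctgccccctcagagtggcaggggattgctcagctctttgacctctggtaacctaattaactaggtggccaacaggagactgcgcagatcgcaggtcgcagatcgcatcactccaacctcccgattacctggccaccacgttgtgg
Kmo, chr1:175631943-175632242, plus strand: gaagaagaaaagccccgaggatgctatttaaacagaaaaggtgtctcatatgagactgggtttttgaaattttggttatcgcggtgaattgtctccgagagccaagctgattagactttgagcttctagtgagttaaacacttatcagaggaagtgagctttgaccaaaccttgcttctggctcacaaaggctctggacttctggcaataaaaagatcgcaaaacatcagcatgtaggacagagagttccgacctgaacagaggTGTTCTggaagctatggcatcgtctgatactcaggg
The Ivd promoter held 4 CCAAT letters, all on the opposite strand. Qdpr held 2 CCAAT, 1 TTGCNNAA and 1 TGTTCT, and Haao and Kmo held 1 TGTTCT each. CCAAT was found for 19 of the 34 members (55.9%), against 37.4% of all 32851 promoters in the table, TTGCNNAA for 5 (14.7%, against 10.8%), TATAAA for 4 (11.8%, against 13.6%) and TGTTCT for 4 (11.8%, against 19.0%). TGACGTCA and CAAAGTCCA occurred in none of the 34 members' windows and in 1.79% and 0.475% of all promoters. These matches describe letters only. A member was counted if any promoter listed for it matched, while the shares of all promoters count each promoter. The units therefore differ, and the shares were not compared by a test. The RefSeq starts used for Kmo and Haao lie inside the genes as GENCODE M21 draws them, from 175620381 to 175662116 and from 83831156 to 83847963.

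All 4 members of branched chain breakdown had higher mean levels in KO, where 51.8% of all tested genes did. Of the 4, 2 passed the threshold as higher, against 1.75% of all tested genes. In the authors' deposited comparison 3 were called higher, against 3.92% of its genes. Dbt encodes the transacylase core of the branched chain ketoacid dehydrogenase complex, which commits leucine, isoleucine and valine to oxidation. Its level was 2912, 3564 and 4307 normalized counts (lowest, median and highest) in WT and 4191, 5246 and 7440 in KO. All KO livers except KO 6 lay above every WT liver, and KO 1 was highest. The rise was 1.49-fold (fitted log2 fold change 0.58, SE 0.13, adjusted p = 0.0273, limma). Ivd encodes isovaleryl-CoA dehydrogenase, the next enzyme on the leucine branch. It measured 4409, 5584 and 5910 in WT and 5942, 8008 and 10820 in KO, and it was the 1 member whose groups did not overlap, a pattern found in 2.96% of all tested genes. Its rise was 1.46-fold (fitted log2 fold change 0.55, SE 0.13, adjusted p = 0.0301). Dbt lies on chromosome 3 from 116513070 to 116549981 (GRCm38, plus strand) and Ivd on chromosome 2 from 118861954 to 118882909.

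The other subunits of the same complex differed less. Bckdhb, the E1 beta subunit, measured 2182 to 3054 in WT and 2590 to 3968 in KO, with 4 KO livers above all WT livers (fitted log2 fold change 0.32, SE 0.10, adjusted p = 0.0820). It passed the threshold without WT 6 (0.0387) or KO 3 (0.0439) and in the authors' deposited comparison (adjusted p = 0.0393 by DESeq2). Bckdha, the E1 alpha subunit, measured 5196, 5386 and 6474 in WT and 5258, 5962 and 7492 in KO, and its groups overlapped widely. The 95% interval of its log2 difference ran from −0.09 to 0.30 (adjusted p = 0.532), and its exons overlap those of B3gnt8, so these genes may share reads. Within each library, the ratio of Dbt to Bckdha counts was 0.52, 0.61 and 0.83 in WT and 0.73, 0.86 and 0.99 in KO, so 4 KO livers lay above all WT livers.

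Of 19 tested companion genes of this pathway, 15 were higher in KO and 4 lower, with 1 past the threshold (5.26%, against 4.43% called and 51.8% higher over all tested genes) and a median log2 fold change of 0.13. The 1 was Bcat2, the mitochondrial branched chain aminotransferase that starts the pathway and is known to be scarce in liver. It measured 500, 586 and 821 in WT and 763, 831 and 868 in KO, a rise of 1.35-fold (adjusted p = 0.0323), with 3 KO livers above all WT livers and WT 6 inside the KO range. Bckdk, the kinase that switches the complex off, had a fitted log2 fold change of 0.22 (adjusted p = 0.196, and 0.0401 without WT 6). Of the 19 companions, 8 had an unadjusted p under 0.05 in limma, against 23.4% of all tested genes. In the authors' deposited comparison 3 of the 19 were called, all higher (15.8%, against 3.92% of its genes higher).

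With 1 liver left out, log2 fold changes were 0.476 to 0.642 for Dbt, 0.458 to 0.631 for Ivd and 0.371 to 0.514 for Bcat2. Their calls lay near the threshold, and each ended with any 1 of several livers left out. That of Dbt was lost without WT 1, WT 3, WT 5 or KO 4 (adjusted p up to 0.0652), that of Ivd without WT 1, WT 2, WT 3, WT 5, KO 2 or KO 4 (up to 0.0704), and that of Bcat2 without WT 1, WT 2, WT 3, WT 4, WT 5, KO 1 or KO 4 (up to 0.0771). In the fit that takes neighbouring animal numbers as blocks, Dbt, Ivd and Bcat2 had adjusted p-values of 0.0783, 0.143 and 0.0929.

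**Figure D2:**
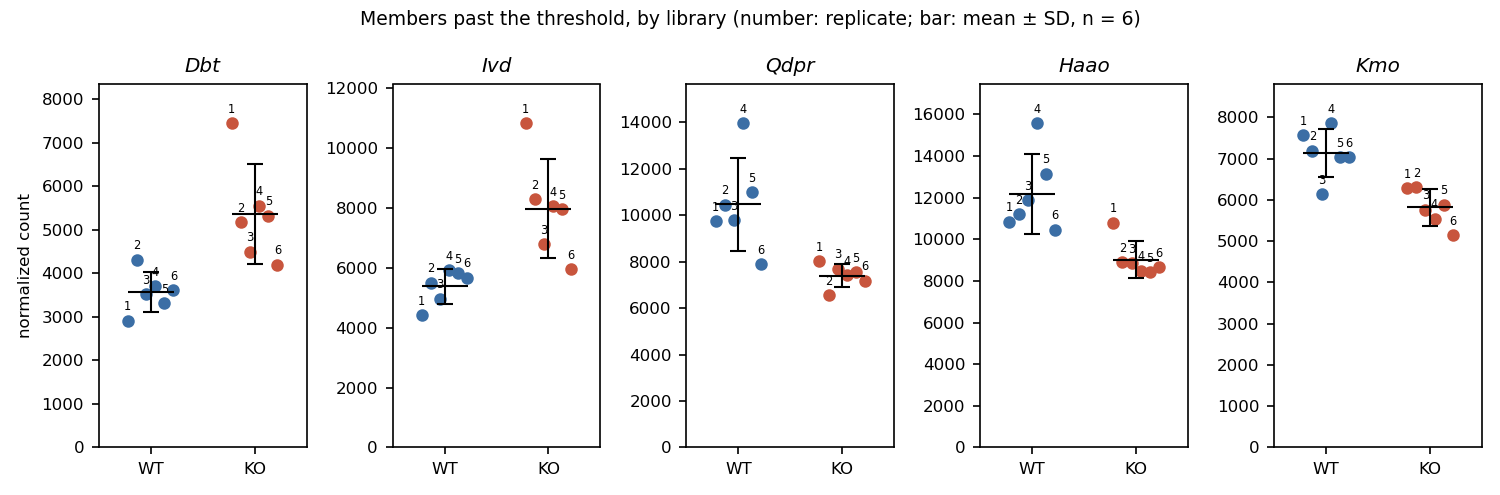
Normalized counts of the 5 members past the threshold in each of the 12 libraries (points, numbered by replicate), with mean and SD for 6 libraries per group, on axes that start at 0. KO 1 is the highest KO liver for Dbt, Ivd, Qdpr and Haao, and the groups are apart for Ivd alone.

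Aromatic amino acid breakdown held all 3 members called lower in limma, out of its 9, where 2.68% of all tested genes were called lower. The falls were not confined to it in the authors' deposited comparison, which called these 3 and also Gpt2 and Prodh lower (background 4.76%). Kmo and Haao act in the kynurenine pathway, which takes tryptophan towards NAD or full oxidation. Haao, 3-hydroxyanthranilate dioxygenase, measured 10468, 11539 and 15568 in WT and 8418, 8759 and 10797 in KO. KO 1 alone lay inside the WT range, and the other 5 KO livers were below all WT livers. The fall was 1.34-fold (fitted log2 fold change −0.43, SE 0.10, adjusted p = 0.0330, limma). Kmo, kynurenine 3-monooxygenase, measured 6144, 7112 and 7854 in WT and 5144, 5822 and 6302 in KO, with 4 KO livers below all WT livers. Its fall was 1.23-fold (fitted log2 fold change −0.29, SE 0.07, adjusted p = 0.0381). Kynu, kynureninase, which acts between these enzymes, measured 3303, 3904 and 4296 in WT and 2542, 3229 and 3819 in KO (fitted log2 fold change −0.27, adjusted p = 0.122), and all 6 KO livers lay below the WT median.

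Tdo2, tryptophan dioxygenase, which opens the kynurenine pathway, had the opposite sign. It measured 21167, 25339 and 36810 in WT and 20870, 39473 and 54198 in KO, and 4 KO livers were above and KO 6 was below all WT livers (fitted log2 fold change 0.42, SE 0.21, adjusted p = 0.257). The ratio of Tdo2 to Haao counts within a library was 1.95, 2.08 and 3.28 in WT and 2.41, 4.14 and 6.09 in KO. The WT livers other than WT 2 lay below every KO liver in this ratio, which is a description of values already seen, with no test.

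Among 15 tested companion genes of aromatic breakdown, 10 were higher and 5 lower in KO, with 1 past the threshold (6.67%, against 4.43% of all tested genes). That was Ccbl1, also called Kyat1, a kynurenine aminotransferase that also splits cysteine conjugates. It measured 1931, 2825 and 3265 in WT and 818, 1327 and 2226 in KO, and all KO livers except KO 6 lay below every WT liver. The fall was 2.09-fold (fitted log2 fold change −1.06, SE 0.21, adjusted p = 0.0144), and the call held without each single library (adjusted p up to 0.0424), with WT 6 and KO 2 left out (0.0212) and with animal number blocks (0.0378).

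Qdpr, dihydropteridine reductase, recycles the cofactor tetrahydrobiopterin. It shares 332 of its 1788 exon bases with Gm42413, and without the strand setting reads there cannot be told apart. Qdpr measured 7879, 10125 and 13957 in WT and 6565, 7474 and 8010 in KO, and 5 KO livers lay below all WT livers, while KO 1 exceeded WT 6 alone. The fitted log2 fold change was −0.48 (SE 0.11, adjusted p = 0.0304). The spread was 19.2% of the mean in WT and 6.70% in KO (coefficient of variation).

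Qdpr is the member nearest to the deleted gene. It lies on chromosome 5 from 45434021 to 45450236 (GRCm38, minus strand), 246945 bases from Lcorl, which spans 45697181 to 45857615. The other 3 members on chromosome 5, Sds, Hpd and Asl, are at least 74618911 bases away. Of 6 tested genes within 1 Mb of Lcorl, Lcorl and Qdpr passed the threshold. Between them, Lap3, a leucine aminopeptidase gene, had a fitted log2 fold change of −0.14 (adjusted p = 0.418), and Med28 one of −0.0061 (adjusted p = 0.967). Ncapg, which overlaps the end of Lcorl, had one of −1.56 (adjusted p = 0.0508), and the authors' deposited comparison called it lower (adjusted p = 0.00642 by DESeq2). An effect of the deletion through the Lcorl protein and one of the altered chromosome segment cannot be told apart in this design.

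Of the tyrosine enzymes, 0 of 4 passed in limma, edgeR or the authors' deposited comparison. Only 1 had an unadjusted p under 0.05 in limma, against 23.4% of all tested genes. Tat, tyrosine aminotransferase, was the most variable member in WT: it measured 27567, 61219 and 100492 in WT and 37466, 60794 and 92320 in KO (adjusted p = 0.903). Its 95% interval ran from −0.57 to 0.75 on the log2 scale, and the sign of its small difference turned without WT 3, WT 6 or KO 5. Hpd, hydroxyphenylpyruvate dioxygenase, exceeded the WT median in 5 of 6 KO livers (fitted log2 fold change 0.34, adjusted p = 0.202). Hgd, homogentisate dioxygenase, and Fah, fumarylacetoacetase, had log2 fold changes of −0.06 and 0.06, with intervals from −0.28 to 0.17 and from −0.13 to 0.25.

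For the aromatic genes these ranges were −0.56 to −0.395 for Qdpr, −0.336 to −0.258 for Kmo and −0.478 to −0.352 for Haao, on the log2 scale. Their calls also lay near the threshold, and each ended with any 1 of several livers left out. That of Qdpr was lost without WT 1, WT 2, WT 3, WT 5, KO 1, KO 2 or KO 4 (adjusted p up to 0.0676), that of Kmo without WT 1, WT 2, WT 4, WT 5, KO 1, KO 3, KO 4 or KO 5 (up to 0.0891), and that of Haao without WT 2, WT 3, WT 5, KO 2, KO 4 or KO 5 (up to 0.0803). In the fit with animal number blocks, Qdpr, Kmo and Haao had adjusted p-values of 0.0951, 0.0554 and 0.0939.

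**Figure D3:**
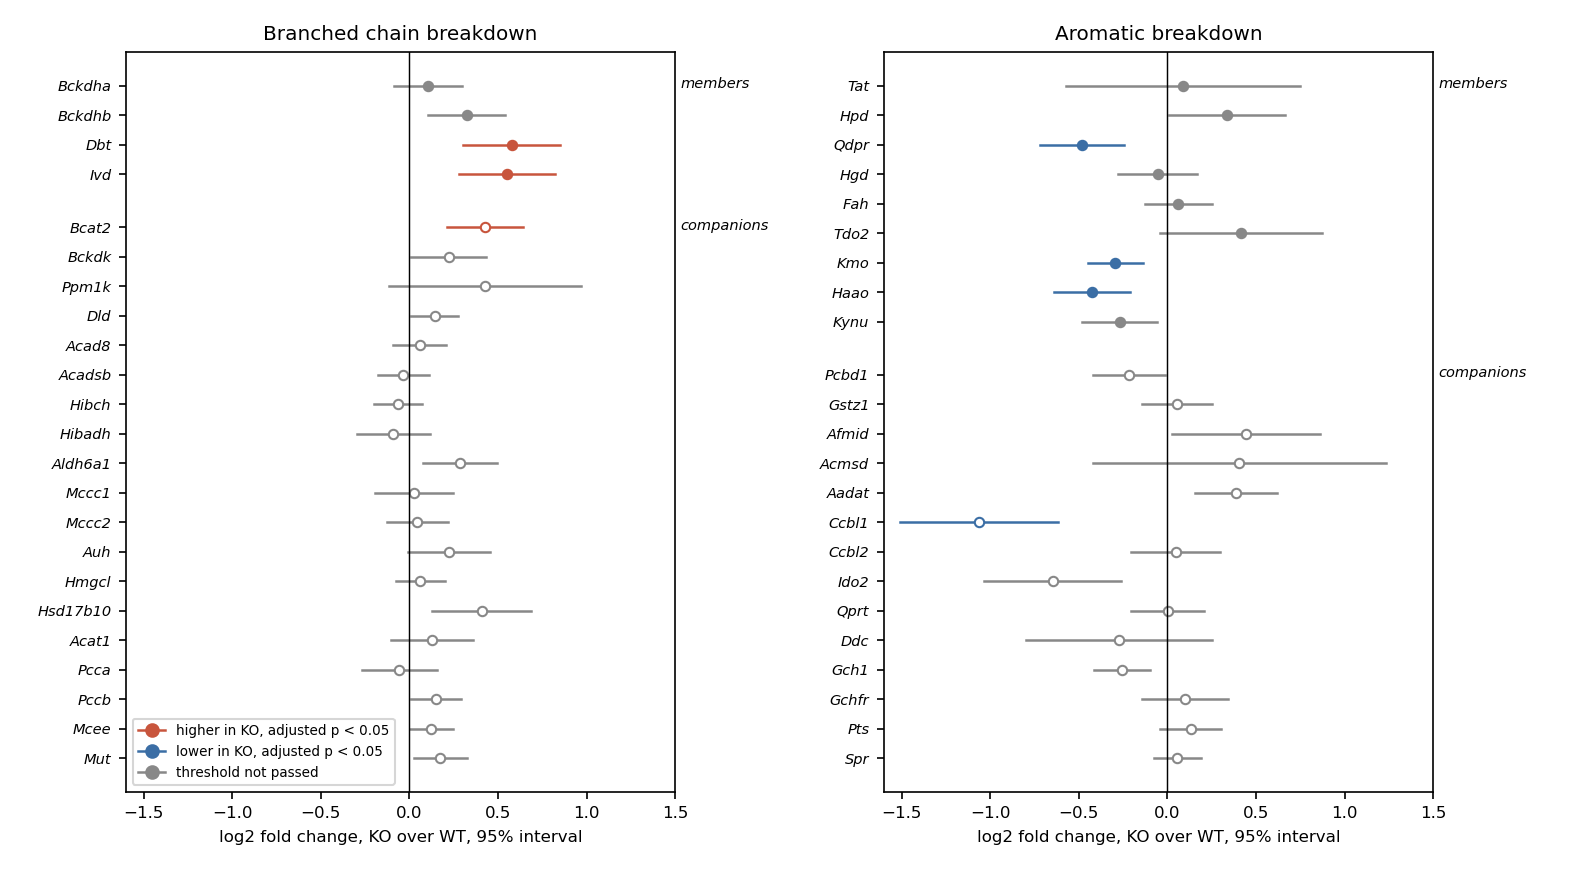
Log2 fold changes, KO over WT, with 95% intervals from limma for tested genes of branched chain breakdown (left, all) and aromatic breakdown (right, all but 1). Filled points are members and open points companion genes; Bcat2, Dbt and Ivd are past the threshold on the left, and Ccbl1 (also called Kyat1), Qdpr, Haao and Kmo on the right.

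None of the 8 urea cycle genes passed the threshold in limma, although 7 were higher in KO; 2 had an unadjusted p under 0.05, edgeR called 0, and the authors' deposited comparison called 1. Nags makes N-acetylglutamate, the activator that carbamoyl phosphate synthetase needs. It measured 1299, 2013 and 2326 in WT and 1897, 2628 and 3494 in KO, where 5 livers lay above all WT livers and KO 5 did not (fitted log2 fold change 0.52, SE 0.17, adjusted p = 0.0997). In the authors' deposited comparison Nags passed (adjusted p = 0.0497 by DESeq2), and 443 bases of its exons are shared with Gm11586. Cps1, the carbamoyl phosphate synthetase that takes up ammonia, measured 119383, 153823 and 176579 in WT and 128941, 210521 and 247993 in KO. KO 6 was near the low end of WT and KO 3 inside the WT range, and the other 4 KO livers were above it (fitted log2 fold change 0.36, SE 0.18, adjusted p = 0.242).

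None of the later enzymes passed the threshold. Otc, ornithine transcarbamylase, was the steadiest urea cycle gene in WT, with a coefficient of variation of 4.67%, and had a fitted log2 fold change of 0.15 (interval −0.03 to 0.32, adjusted p = 0.295). Ass1, argininosuccinate synthetase, measured 39566, 59182 and 69196 in WT and 39583, 64734 and 74269 in KO, so the groups overlapped almost fully. Its log2 fold change of 0.09 had an interval from −0.27 to 0.45 (adjusted p = 0.802) and turned to −0.01 without WT 6. Asl, argininosuccinate lyase, and Arg1, arginase, had log2 fold changes of 0.23 and 0.12, with intervals from −0.13 to 0.59 and from −0.08 to 0.31 (adjusted p = 0.449 and 0.468). With animal number blocks that of Asl was 0.39 (adjusted p = 0.301). Within a library, Cps1 counts were 2.50, 2.62 and 3.02 times those of Ass1 in WT and 3.07, 3.28 and 3.39 times in KO, so each of the 6 KO livers exceeded each WT liver in this ratio. The ratio was looked at after its genes had been seen and was not tested. The share of other gene pairs this far apart was not counted. Of the other ratios formed, Mat1a over Cbs had 5 KO livers above all WT livers. Tdo2 over Haao, Dbt over Bckdha and Bckdhb over Bckdha had 4 each.

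Neither carrier passed the threshold. Slc25a13, the aspartate and glutamate carrier, measured 5355, 6143 and 6740 in WT and 5919, 7379 and 9188 in KO, with all KO livers but KO 3 above every WT liver (fitted log2 fold change 0.30, SE 0.10, adjusted p = 0.109, and 0.0469 without KO 3). Slc25a15, the ornithine carrier, measured 10375, 16493 and 21170 in WT and 11018, 13624 and 16492 in KO (fitted log2 fold change −0.19, adjusted p = 0.487), and every KO liver lay at or below the WT median. Of 18 tested companion genes of nitrogen supply, 1 passed (5.56%, against 4.43% of all tested genes) and 8 were higher in KO. The 1 was Hoga1, an aldolase of hydroxyproline breakdown, which rose 1.35-fold, from a WT median of 4138 to a KO median of 5507 (fitted log2 fold change 0.44, adjusted p = 0.0273; lost without WT 1, WT 2, WT 3, WT 4, WT 5 or KO 4, up to 0.0612).

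Glul, glutamine synthetase, and Gls2, liver glutaminase, had log2 fold changes of −0.23 and 0.05 (adjusted p = 0.623 and 0.882). Oat, ornithine aminotransferase, measured 6585, 8987 and 13097 in WT and 8831, 14249 and 32210 in KO, and KO 1 stood far above the rest (fitted log2 fold change 0.72, SE 0.27, adjusted p = 0.13). Oat passed in the authors' deposited comparison (adjusted p = 0.0378 by DESeq2). Glul and Oat are known as genes of the hepatocytes around the central vein.

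**Figure D4:**
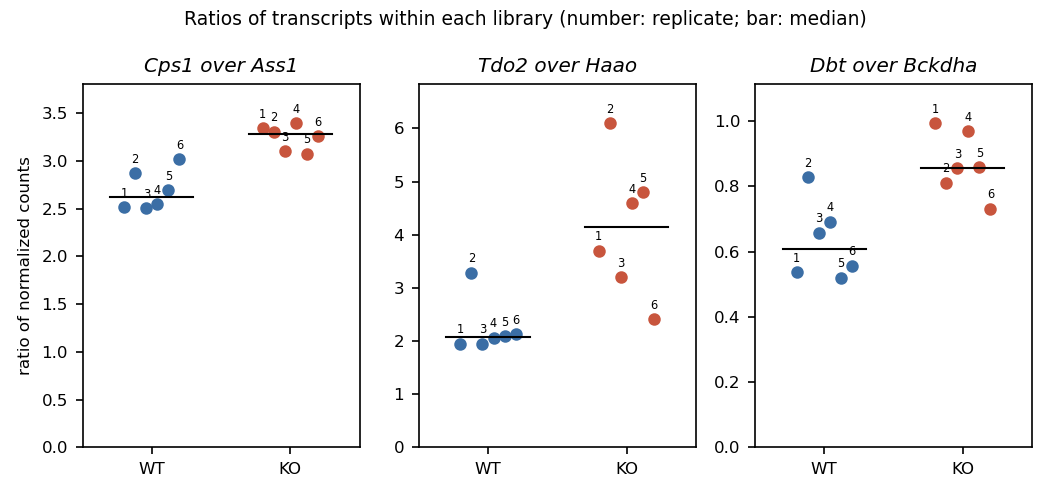
Ratios of the normalized counts of 2 genes within each library, with the median of 6 libraries per group as a bar. The groups are apart for Cps1 over Ass1, and they overlap for Tdo2 over Haao and Dbt over Bckdha.

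Methionine breakdown had the highest median of the 8 member pathways, a log2 fold change of 0.49, but 0 of its 5 members passed in limma, with 3 at an unadjusted p under 0.05; edgeR called 0, and the authors' deposited comparison called 2. Mat1a makes S-adenosylmethionine. It measured 155547, 185517 and 209538 in WT and 181796, 256427 and 343698 in KO, and all KO livers except KO 6 were above every WT liver (fitted log2 fold change 0.49, SE 0.17, adjusted p = 0.113). Mat1a passed without KO 6 (0.0491) and in the authors' deposited comparison (adjusted p = 0.0121 by DESeq2). Ahcy, which clears S-adenosylhomocysteine, measured 7057, 9842 and 11168 in WT and 10229, 14762 and 17977 in KO, with KO 3 and KO 6 inside the WT range (fitted log2 fold change 0.56, SE 0.16, adjusted p = 0.0642). It passed without KO 3 (0.0391) or KO 6 (0.0333), and in the authors' deposited comparison (adjusted p = 0.0118 by DESeq2).

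Gnmt, the glycine methyltransferase that uses up S-adenosylmethionine, had a fitted log2 fold change of 0.33 (adjusted p = 0.227). Bhmt, which remethylates homocysteine with betaine, had one of 0.49 (adjusted p = 0.114), and each of the 6 KO livers exceeded the WT median of 37468. Cbs, cystathionine beta synthase, measured 10295, 13508 and 15543 in WT and 9021, 12896 and 14738 in KO, with an interval from −0.36 to 0.20. Of 18 tested companion genes, 2 rose (11.1%, against 1.75% of all tested genes higher) and 0 fell. Cth, cystathionine gamma lyase, the step after Cbs, rose 1.57-fold, from a WT median of 9552 to a KO median of 15553, with 5 of 6 KO livers above all WT livers (adjusted p = 0.0389). Chdh, choline dehydrogenase, which supplies betaine, rose 1.37-fold, from a median of 3737 to 5041 (adjusted p = 0.0409). The call of Cth was lost without WT 1, WT 3, WT 4, WT 5, KO 1, KO 2, KO 4 or KO 5 (up to 0.0919) and that of Chdh without WT 1, WT 2, WT 3, WT 5, KO 1, KO 2, KO 4 or KO 5 (up to 0.0887). Both also ended with WT 6 and KO 2 left out together (0.0708 and 0.0689) and with animal number blocks (0.0939 and 0.149).

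None of the 6 genes of transamination, serine and proline breakdown passed in limma; 2 had an unadjusted p under 0.05, edgeR called 0, and the authors' deposited comparison called 2. Prodh, proline dehydrogenase, had the largest fitted difference of all members. It measured 4776, 7375 and 9593 in WT and 2662, 5304 and 5903 in KO, where KO 3 and KO 4 held 2742 and 2662 and the other 4 KO livers held 5217 to 5903. The log2 fold change was −0.74 (SE 0.23, adjusted p = 0.0820), and Prodh passed in the authors' deposited comparison (adjusted p = 0.0293 by DESeq2). Gpt2, the mitochondrial alanine aminotransferase, measured 8402, 9735 and 10644 in WT and 6612, 7939 and 8672 in KO, with 4 KO livers below all WT livers (fitted log2 fold change −0.28, SE 0.09, adjusted p = 0.0795; 0.0312 by DESeq2 in the authors' deposited comparison).

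Gpt, the cytosolic alanine aminotransferase, had a fitted log2 fold change of 0.06 (interval −0.24 to 0.35), which turned to −0.03 without WT 1 and to −0.05 without KO 1. Got1, aspartate aminotransferase, and Sds, serine dehydratase, had log2 fold changes of −0.11 and −0.23 (adjusted p = 0.837 and 0.518), and WT 6 was the lowest of all 12 livers for both. Sds shares 360 exon bases with Plbd2. Aldh4a1, which oxidizes the product of Prodh, had a fitted log2 fold change of 0.22 (adjusted p = 0.274), opposite in sign to Prodh, and shares 1595 exon bases with Gm21969.

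The histidine, glycine and lysine pathways held 0 of 4, 0 of 4 and 0 of 2 genes past the threshold in limma. An unadjusted p under 0.05 was reached by 1, 1 and 0, against 23.4% of all tested genes. EdgeR and the authors' deposited comparison called 0 in each. Hal, histidase, the first step of histidine breakdown, measured 6415, 7147 and 8738 in WT and 4687, 5950 and 7274 in KO (fitted log2 fold change −0.33, SE 0.12, adjusted p = 0.129), with 4 KO livers below all WT livers. The next enzymes, Uroc1, Amdhd1 and Ftcd, had log2 fold changes of 0.15, 0.0052 and 0.10 (adjusted p = 0.580, 0.989 and 0.673), and that of Amdhd1 turned to −0.0155 with equal library totals. Ftcd was the steadiest member in WT, from 9275 to 10103, and ran from 7486 to 13598 in KO, with 3 livers above and 2 below all WT livers.

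In glycine and one carbon breakdown, Sardh, sarcosine dehydrogenase, measured 14770, 23581 and 25421 in WT and 23406, 26922 and 42254 in KO (fitted log2 fold change 0.40, adjusted p = 0.165). Dmgdh, the dehydrogenase of the step before it, had a fitted log2 fold change of 0.12 (adjusted p = 0.565). Gldc and Amt, subunits of the glycine cleavage system, had 0.10 and −0.12, with intervals from −0.34 to 0.54 and from −0.45 to 0.21. Aass and Gcdh of lysine breakdown had 0.15 and 0.11 (adjusted p = 0.544 and 0.554).

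Agxt, a glyoxylate aminotransferase and one of 12 tested glycine, serine and threonine companions of which 0 passed in limma or in the authors' deposited comparison (3 at an unadjusted p under 0.05), had a fitted log2 fold change of 0.21 (adjusted p = 0.285). Among the other companions, 1 of 5 for histidine and one carbon units and 1 of 8 for lysine passed. These are 20% and 12.5%, against 4.43% of all tested genes, and each rests on 1 gene. In the authors' deposited comparison 1 and 2 were called, against 8.68% of its genes. Mthfd1l, a mitochondrial formyltetrahydrofolate synthetase, rose 1.67-fold, from a WT median of 127 to a KO median of 225 (adjusted p = 0.0430). Dhtkd1, a subunit of the 2-oxoadipate dehydrogenase of lysine breakdown, rose 1.71-fold, from 572 to 990 (adjusted p = 0.0340), with 5 KO livers above all WT livers. The call of Mthfd1l was lost without any 1 library other than WT 3, WT 6 or KO 3 (up to 0.0968), and that of Dhtkd1 without WT 1, WT 3, WT 4, KO 1, KO 2, KO 4 or KO 5 (up to 0.0803). With animal number blocks neither Mthfd1l (0.0939) nor Dhtkd1 (0.105) passed. Over all 115 tested companion genes, 6 rose and 1 fell in limma, or 6.09%, against 4.43% of all tested genes. An unadjusted p under 0.05 was reached by 37 of the 115, against 23.4% of all tested genes. In the authors' deposited comparison 17 were called (14.8%, against 8.68% of its genes).

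The livers of a group differed among themselves, as the heat map of all members shows. KO 1 was the highest of the 12 livers for 21 members and the lowest for 0. KO 6 was the highest for 0 and the lowest for 9, and it was the lowest KO liver for 25. Among WT livers, WT 4 was the highest of its group for 20 members and WT 1 the lowest for 21. The mean log2 difference from the WT mean over all 42 ran from −0.15 to 0.18 in WT and from −0.21 in KO 6 to 0.35 in KO 1, so the groups overlapped. For the 4 branched chain genes, which include the called Dbt and Ivd, this mean was −0.21 to 0.14 in WT and 0.15 to 0.78 in KO. For the 19 tested branched chain companions the groups overlapped. Their mean was −0.08 to 0.11 in WT and reached 0.38 in KO, with 3 KO livers above all WT livers. For the 5 methionine genes the mean was −0.17 to 0.19 in WT, −0.10 in KO 6 and 0.21 to 0.59 in the other KO livers. For the 4 kynurenine genes it was −0.17 to 0.24 in WT and −0.47 to 0.10 in KO.

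The spread was wider in KO than in WT for 31 of the 42 genes, with a median coefficient of variation of 19.5% in KO and 13.5% in WT. The members took 3.23 to 4.12% of a WT library's reads (median 3.54%) and between 3.2 and 4.84% of a KO library's (median 4.46%).

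**Figure D5:**
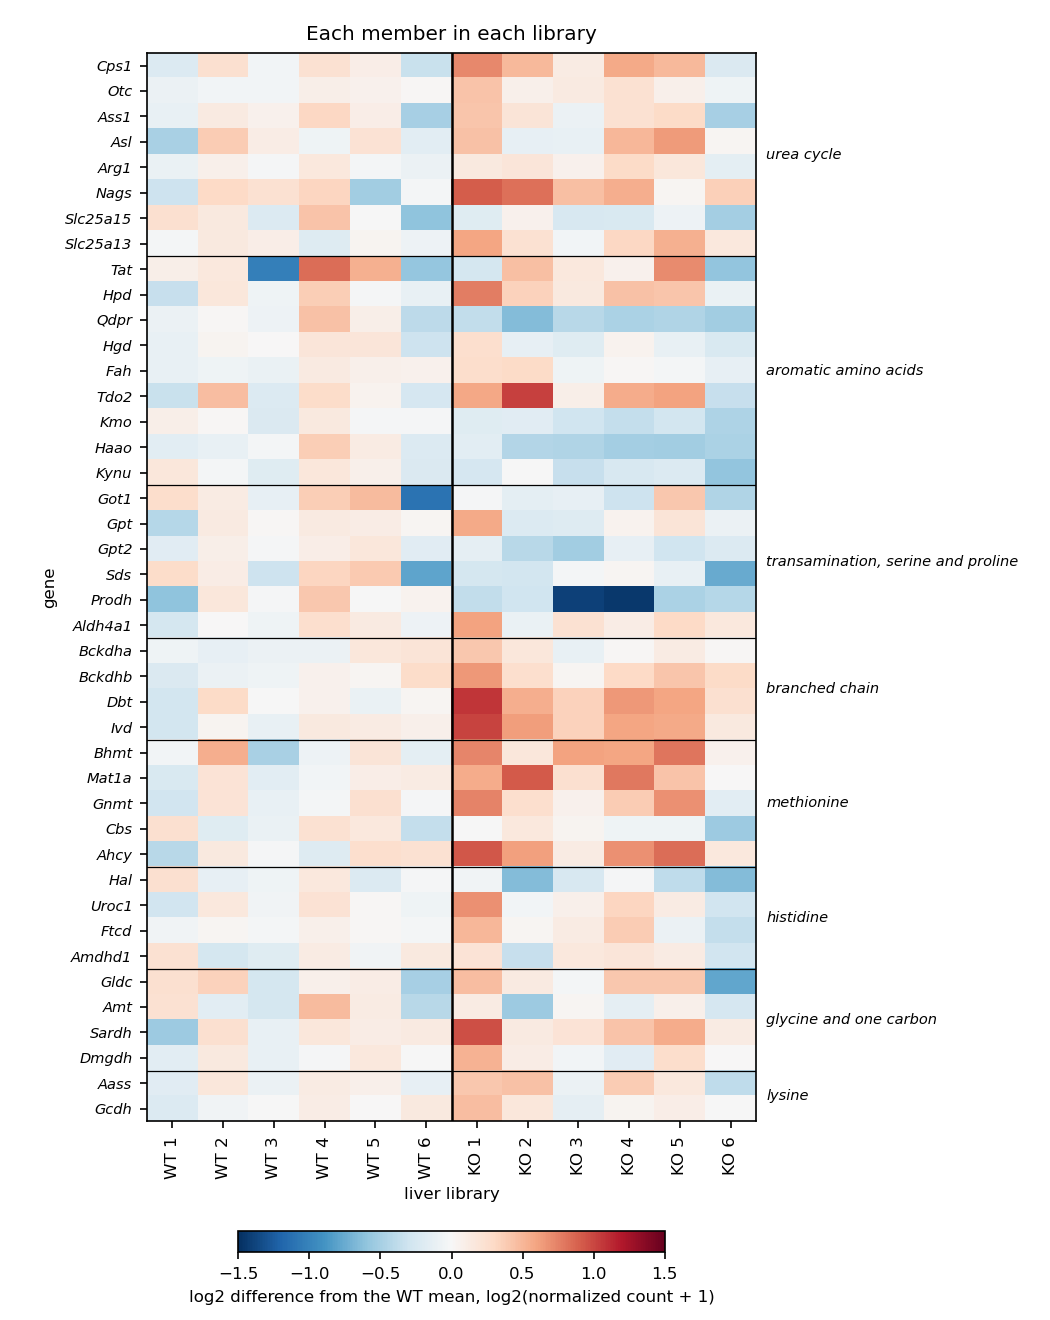
Log2 difference of each member (rows, grouped by pathway) from its WT mean in each of the 12 livers (columns), on the log2(normalized count + 1) scale. KO 1 is the highest liver for 21 of 42 genes, KO 6 lies at or below the WT mean in many rows, and the darkest cells of Prodh are KO 3 and KO 4.

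Levels of different genes were compared per kilobase of annotated exon (GENCODE M21), as means and SD over 6 livers. Mat1a stood highest in WT, at 52704 ± 6088 normalized counts per kilobase, followed by Gnmt at 30238 ± 4120 and Cps1 at 27291 ± 4312. The last 2, together with Tat (25613 ± 11233), Hpd (24194 ± 4208) and Ass1 (23496 ± 4194), had overlapping mean ± SD. Lowest were Kynu at 625 ± 71.2 and Amt at 416 ± 97.6. The first 3 places were the same in KO, at 75406 ± 17530, 38551 ± 9253 and 35514 ± 7808. Of the aromatic genes, Qdpr went from place 12 among the 42 in WT to place 19 in KO. Ahcy went from place 22 to 14.

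Known regulators of amino acid breakdown showed no call in limma, 0 of 14, with 3 at an unadjusted p under 0.05; edgeR called 0, and the authors' deposited comparison 1. Gcgr, the glucagon receptor, measured 4452, 5300 and 6544 in WT and 4089, 4259 and 4903 in KO, with 4 KO livers below all WT livers (fitted log2 fold change −0.29, SE 0.09, adjusted p = 0.0863; 0.0363 by DESeq2 in the authors' deposited comparison). Of 6 genes that respond to fasting and glucagon, 0 passed in limma, edgeR or the authors' deposited comparison. Only 1 had an unadjusted p under 0.05 in limma, against 23.4% of all tested genes. Pck1, the gluconeogenic carboxykinase, measured 25905, 80863 and 124721 in WT and 68424, 90724 and 177267 in KO (adjusted p = 0.451). Igfbp1, which rises in fasting, spread from 200 to 12600 in WT and from 5242 to 47869 in KO (fitted log2 fold change 2.32, SE 0.88, adjusted p = 0.138). Its log2 fold change was 1.52 without WT 3 and 1.33 with animal number blocks. G6pc, glucose 6-phosphatase, which also rises in fasting, had the opposite sign, at 3236 to 18499 in WT and 2718 to 26850 in KO (fitted log2 fold change −0.83, adjusted p = 0.374). Irs2 and Fgf21, also of this list, had 1.18 and −0.37 (adjusted p = 0.297 and 0.606). The part of feeding state in the values above was not tested.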

How the data were processed

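Liver RNA of 6 KO and 6 WT female mice was grouped by the genotype in the labels, and replicates are numbered in accession order. A TruSeq total RNA kit was used, per the labels' protocols. Tools named by the submitters' processing notes are STAR, featureCounts, FastQC and DESeq2, with mm10 as build and no versions or order. The sources used here give no annotation, strand setting or filter. The authors deposited normalized counts (a signal: reads over 1 factor per library). Within a library all values are whole multiples of 1 step (100% within 0.001 reads), which gave the reads back. The authors' deposited comparison holds a p-value, an adjusted p-value and a log2 fold change per gene; refitting the reads with DESeq2 matched their p-values within 2.05e-06. Fold changes printed here are from limma, not from that table.

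The test was limma 3.58.1 in R 4.3.3 on log2(normalized count + 1), using a trend in the prior variance and genotype alone, for genes with a mean of at least 10, two-sided p-values and Benjamini-Hochberg adjustment over all 13569 tested genes at a threshold of 0.05. Alternatives changed the pseudocount to 0.5 or 10, the minimum to none or 50, the scaling to equal upper quartiles or equal totals, or the tool to DESeq2 1.42.0 or edgeR 4.0.16 (both given the reads). Others took neighbouring animal numbers as blocks, a gap of 10 opening a new block, or omitted libraries. The members and gene lists were chosen with earlier results of these data known. Named are all 42 members, up to 4 companion genes past the threshold per list, and 8 further companions fixed by name; 1 more that the rule names is not reported here. Other genes named in the closing section, marker genes, Irs2, Fgf21, G6pc and those around Lcorl were chosen after their values were seen. Gene positions are from GENCODE M21 on GRCm38; overlapping genes are uncertain without the strand setting. On simulated counts for 13569 genes with 6 libraries per group, KO against WT, limma recovered 53.0% of genes changed 1.5-fold. It recovered 88.7% of those changed 2-fold and 100% of those changed 4-fold, and 2.47% of its calls were false. The simulation drew genes independently, and both groups had the spread of the WT libraries. Most members (31 of 42) spread more widely in KO, so these rates may be too favourable for these data.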

Additional observations from a re-analysis of the deposited data

Results flagged for a closer look

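For 57 named genes, each group of 6 livers was searched for a liver whose gap to its nearest neighbour, over the group's range, exceeds Dixon's critical value. Of 114 groups, 6 held such a liver, and chance flags about 1 in 20 groups. KO 1 was far above the other KO livers for Haao, at 10797 normalized counts against 8894 for the next, and for Oat, at 32210 against 17158. KO 5 stood apart for Pck1, at 177267 against 108182. WT 1 was far below the other WT livers for Gpt, at 7683 against 10491, and KO 6 below the other KO livers for Cbs, at 9021 against 12597. WT 4 was the highest WT liver for Chdh, at 4356 against 3761.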

How the results depend on the processing

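Of the 13569 tested genes, 601 passed the threshold, with 2 members higher and 3 lower in KO and 6 companion genes higher and 1 lower. The same 5 members were called with each pseudocount, with each filter, with equal totals, with equal upper quartiles and by edgeR. DESeq2 called 1323 genes, 6 members higher and 5 lower, and 13 companions higher and 4 lower, all 5 members among them. With animal number blocks, 158 genes, 0 members in either direction, 1 companion higher (Hoga1) and 1 lower (Ccbl1) were called; WT 2 and WT 3 form a block without KO livers and so add nothing to that contrast. Without WT 6 and KO 2 together, 917 genes and 7 members were called, the 5 and also Kynu (adjusted p = 0.0375) and Bckdhb (0.0451), with 5 companions higher and 2 lower, and the calls of Cth (0.0708) and Chdh (0.0689) ended. Leaving out each library in turn gave 224 to 933 genes, 0 to 5 members higher, 0 to 3 members lower, 0 to 8 companions higher and 1 to 3 lower. No member was called without WT 5 or KO 4, 1 without WT 1, WT 2 or WT 3, 2 without KO 2, 3 without KO 1 or KO 5, 4 without WT 4, 6 without WT 6 and 7 without KO 3 or KO 6. The cause was not tested.

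Signs turned for genes near 0 that passed under no setting run. With animal number blocks, the log2 fold change was −0.24 for Tat, −0.11 for Amdhd1 and −0.0525 for Gls2. With equal totals that of Amdhd1 was −0.0155. Without WT 6 and KO 2 it was −0.0303 for Ass1, −0.10 for Tat and −0.0051 for Gldc. Over single omissions it ran from −0.00995 to 0.207 for Ass1, −0.118 to 0.256 for Tat, −0.0471 to 0.108 for Gpt, −0.149 to 0.0156 for Cbs, −0.0483 to 0.0747 for Amdhd1 and −0.0184 to 0.150 for Gls2. No paired analysis was possible because the replicate numbers are given in accession order and tie no animals together. No member had a mean below 969 normalized counts, so low depth limits none of these values the way it limits rare transcripts.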

Other observations

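Several companion genes passed the authors' deposited comparison but not limma, and were chosen here after their values were seen. Slc7a2 and Slc38a4, transporters of cationic and of neutral amino acids, measured 10927 ± 2198 and 24073 ± 3141 normalized counts in WT and 16106 ± 4017 and 31647 ± 5226 in KO (SD, n = 6 each; DESeq2 adjusted p = 0.0241 and 0.0230, limma adjusted p = 0.0820 and 0.0814). Ido2, a second tryptophan dioxygenase, measured 2362 ± 506 in WT and 1515 ± 351 in KO (DESeq2 adjusted p = 0.0111, limma 0.0587), opposite in sign to Tdo2. Aadat, an aminotransferase of kynurenine and lysine breakdown, measured 2224 ± 199 in WT and 2935 ± 540 in KO (DESeq2 adjusted p = 0.0156, limma 0.0602), opposite in sign to Ccbl1.

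Of the genes that make or recycle tetrahydrobiopterin, Gch1, the cyclohydrolase of the first step, measured 4018 ± 330 in WT and 3362 ± 310 in KO (DESeq2 adjusted p = 0.0202, limma 0.0621), and 5 KO livers lay below all WT livers. Pcbd1, which acts before Qdpr in recycling, had a log2 fold change of −0.22 (limma adjusted p = 0.183), and Pts and Spr, the later synthesis steps, had 0.13 and 0.06 (limma adjusted p = 0.350 and 0.634).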
